A study of Homo sapiens with 9 samples.

Results

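The transcripts described here were those that the arrays read as well above background in RKO colorectal cancer cells when UHRF1 depletion and histone deacetylase inhibition were combined, and as not well above background with either alone. They were chosen by the scanner's detection flags. A probe had to be below the limit of "well above background" on all 6 arrays of mock-treated siCONT cells, mock-treated siUHRF1 cells and siCONT cells given TSA, and well above background with a signal of 40 or more on both arrays of siUHRF1 cells given TSA. Of 50599 non-control probes, 24991 were below background on the 6 arrays, 299 of these were above it on both combination arrays, and 60 also had the signal. Probes of the MAGE, GAGE, PAGE, XAGE, SSX, SPANX, CTAG, PCDH, HOX and KRT families and of the lincRNA loci named XLOC were set aside by name, which took out 17 of the 60. The remaining 43 probes carried 41 gene names, of 36337 on the array, and 34 of the 41 were gene symbols.

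RKO is an established human colorectal cancer line, and all arrays carried total RNA from it in 1 colour. The 4 siRNA groups had 2 arrays each. Cells had a control siRNA (siCONT, replicates 1 and 2) or an siRNA against UHRF1 (siUHRF1-1 on 1 array and siUHRF1-2 on the other) for 72 h, and then ethanol as mock treatment or 300 nM TSA for 24 h. A single further array carried RNA from cells in 5-aza-dC, at 1 µM during 72 h, without siRNA or TSA. The rule did not use that array, and it came from a different slide and scan than the 8 siRNA arrays. The depletion was transient, in 1 cell line, and no label says whether the 2 arrays of a group came from separate experiments, so their spread may be technical.

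UHRF1 binds hemimethylated CpG sites behind the replication fork and brings the maintenance methyltransferase DNMT1 to them, so that cells that divide without it lose DNA methylation. TSA blocks the histone deacetylases that keep chromatin around methylated promoters closed, and 5-aza-dC traps DNA methyltransferases on DNA and demethylates it without an siRNA. Germline genes, among them many cancer-testis antigens on the X chromosome, are a well-known class that somatic and tumor cells keep silent through promoter methylation.

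UHRF1 itself was measured by 2 probes. The brighter had normalised log2 levels, relative to each array's 75th percentile, of 2.69 and 2.69 in siCONT cells, 0.36 and 0.07 with siUHRF1, 2.87 and 2.86 with siCONT + TSA, and -0.34 and -0.62 with siUHRF1 + TSA. Both depleted groups were below every siCONT array. The difference was -2.47 (SE 0.14) without TSA, at an adjusted p of 0.00237, and -3.35 (SE 0.14) with it, at 0.000132 (limma). On the 5-aza-dC array the level was 3.69. GAPDH lay between 6.85 and 7.15 on all 9 arrays, and the ACTB probes between 4.23 and 4.54 and between 7.78 and 8.59. The epithelial markers KRT8, KRT18 and CDX2 were above background on all 9 arrays with at least 1 probe, whereas CDH1 and VIL1 were above it on none, and EPCAM only on 1 siCONT array and the 5-aza-dC array. The 3 KRT8 probes differed. One gave 419 and 405 with siCONT, 954 and 701 with siUHRF1, 493 and 504 with siCONT + TSA, and 2288 and 1599 with siUHRF1 + TSA. The probe brightest with siCONT gave 1161 and 1154, 1417 and 1008, 1115 and 1067, and 1905 and 1201 in the same order, with overlap between the groups after normalization. The dimmest probe was above background only with siUHRF1 (28.8 and 19.6), with both treatments (53.5 and 41.4) and with 5-aza-dC (89.7). KRT18 gave 2501 and 2705 with siCONT, 3805 and 2990 with siUHRF1, 2593 and 2718 with siCONT + TSA, and 5441 and 4161 with both treatments for 1 of its 2 probes. The part of these keratins in the results was not tested. PECAM1, ALB and SYP, markers of endothelium, hepatocytes and neuroendocrine cells, were above background on no array. PTPRC, the blood cell marker, had 5 probes, of which 3 were above background on no array. The brightest was above it on both siUHRF1 + TSA arrays (24.5 and 16.0), on 1 array of each other siRNA group (19.4, 21.9 and 24.3) and with 5-aza-dC (140), and its part in the results was not tested.

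Promoter sequence is a property that the rule did not use, and 6 of the members' promoters are shown for how much they differ in CpG content. They are the 3 brightest members with both treatments (TM4SF1, FBLN1 and ARHGDIB), the 2 brightest genes with a symbol on the 5-aza-dC array (DMRTB1 and CT45A1), and CRABP1, the only member among 17 genes that the study followed singly or names as CIMP markers. Each line gives the 250 bases before the first RefSeq start listed for the gene, 5′ to 3′ on the gene's strand, with every CG dinucleotide in capitals. In build GRCh38.p14 they lie at chr3:149377650-149377899 on the minus strand (TM4SF1), chr22:45502633-45502882 on the plus strand (FBLN1), chr12:14948897-14949146 on the minus strand (ARHGDIB), chr1:53459149-53459398 on the plus strand (DMRTB1), chrX:135713389-135713638 on the plus strand (CT45A1) and chr15:78340103-78340352 on the plus strand (CRABP1).
TM4SF1: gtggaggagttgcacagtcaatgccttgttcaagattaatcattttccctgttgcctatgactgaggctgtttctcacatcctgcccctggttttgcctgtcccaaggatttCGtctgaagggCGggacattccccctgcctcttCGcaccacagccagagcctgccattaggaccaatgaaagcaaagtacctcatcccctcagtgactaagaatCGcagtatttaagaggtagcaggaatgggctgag
FBLN1: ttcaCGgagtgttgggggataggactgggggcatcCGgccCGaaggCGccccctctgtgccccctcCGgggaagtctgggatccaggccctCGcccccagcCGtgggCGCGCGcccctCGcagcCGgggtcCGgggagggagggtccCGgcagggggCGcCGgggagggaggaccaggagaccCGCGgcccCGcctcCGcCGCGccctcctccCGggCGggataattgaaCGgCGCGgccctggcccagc
ARHGDIB: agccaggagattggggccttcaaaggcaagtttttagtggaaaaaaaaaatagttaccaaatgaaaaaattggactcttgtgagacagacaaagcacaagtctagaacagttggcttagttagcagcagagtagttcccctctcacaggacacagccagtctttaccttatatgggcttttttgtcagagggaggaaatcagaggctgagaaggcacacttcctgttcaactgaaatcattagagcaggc
DMRTB1: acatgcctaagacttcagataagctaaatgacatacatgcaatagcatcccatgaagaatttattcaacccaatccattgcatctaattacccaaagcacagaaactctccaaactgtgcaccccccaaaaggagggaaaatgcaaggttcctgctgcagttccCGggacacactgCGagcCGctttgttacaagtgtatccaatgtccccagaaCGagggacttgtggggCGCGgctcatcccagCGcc
CT45A1: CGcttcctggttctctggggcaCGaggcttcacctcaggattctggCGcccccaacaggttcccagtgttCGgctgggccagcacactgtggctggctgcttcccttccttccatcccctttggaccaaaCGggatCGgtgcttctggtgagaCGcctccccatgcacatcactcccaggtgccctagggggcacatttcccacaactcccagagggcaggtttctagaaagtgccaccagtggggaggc
CRABP1: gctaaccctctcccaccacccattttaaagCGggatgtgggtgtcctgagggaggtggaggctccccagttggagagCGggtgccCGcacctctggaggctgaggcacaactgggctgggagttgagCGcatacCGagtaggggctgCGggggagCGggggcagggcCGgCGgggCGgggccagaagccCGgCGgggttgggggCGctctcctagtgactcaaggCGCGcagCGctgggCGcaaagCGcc
The FBLN1 and CRABP1 stretches hold 27 and 18 CG dinucleotides. Those of DMRTB1 and CT45A1 hold 7 each and that of TM4SF1 holds 4. ARHGDIB has 0 in this window. It has 3 promoters in the RefSeq set used here, of which only the first listed was read, and the other genes shown have 1 each.

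On the siRNA arrays the member probes were dim. Signals, in the scanner's arbitrary units, had medians of 66.2 with siUHRF1-1 + TSA and 51.6 with siUHRF1-2 + TSA, with ranges of 45.3 to 187 and 40.4 to 143. The 75th percentile of all signals on those arrays was 282 and 274. On the 6 other arrays no member exceeded 17.8, and the medians were 3.42 and 3.89 with siCONT, 6.82 and 7.97 with siUHRF1, and 3.79 and 4.18 with siCONT + TSA. The rule chose probes on these same arrays, which all but sets in advance that the groups do not overlap, so nothing is read from it. The lower combination signal was between 2.61 and 18.0 times the highest of the 6 others. Of 19 other probes of the members' genes, 3 had the same flags, 7 were above background on none of the 8 siRNA arrays and 7 on 1 or more of the 6 dim arrays. A below-background spot gives only a bound. Against the lowest signal read as well above background on each array, or the probe's own if higher, the combination was at least 2.74-fold to at least 10.4-fold above each of the other 3 groups, with a median over members of 3.78. In bulk RNA, fewer cells with a transcript and less transcript per cell cannot be told apart.

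**Figure D1:**
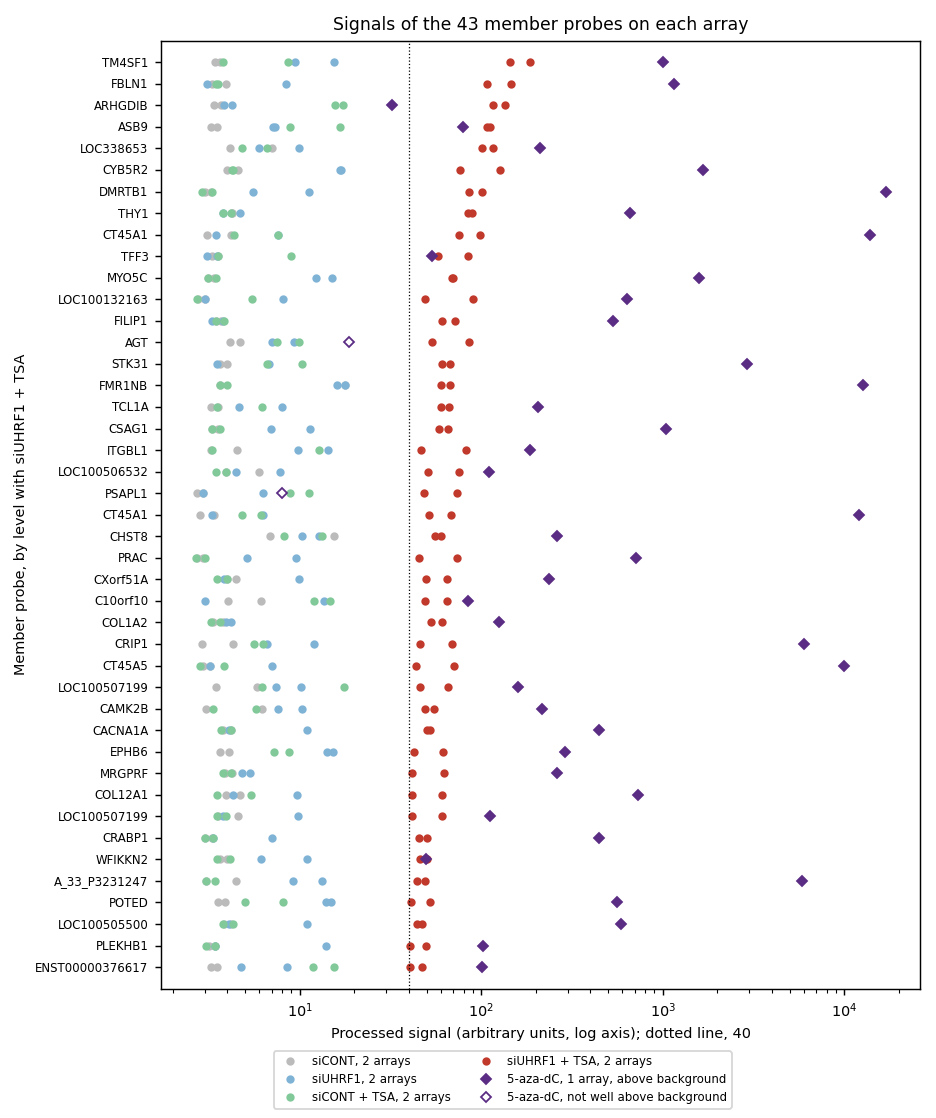
Processed signal in arbitrary units (log axis) of the 43 member probes, 1 row a probe in order of level with both treatments, with a point for each array; the dotted line is the minimum of 40 in the rule. The 6 dim arrays stay at or below 17.8, the 2 siUHRF1 + TSA arrays lie between 40.4 and 187, and the 5-aza-dC signals spread from 7.97 to 16958.

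The minimum set the size of the group. Just inside it, by the lower of the combination signals, were ENST00000376617 (40.4), PLEKHB1 (40.7) and POTED (41.0), and just outside were LOC100128098 (39.5), CKMT1A (39.0) and SLC8A2 (38.3). A further 185 probes were above background on both combination arrays but under 40 on 1 or both. With a minimum of 20 the rule took 158 probes, and with 80 it took 7. Detection "only with both" also rests on the flag. With the scanner's weaker flag (signal positive and significant) on the 6 dim arrays, 1 probe was left, that of FILIP1.

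That weaker flag was set unevenly. On both siUHRF1 arrays it was set for 26 of 43 members (60.5%), beside 20.3% of the 15244 below-background probes with the same names left out. On both siCONT + TSA arrays it was set for 15 members (34.9%), beside 16.4%, and on both siCONT arrays for 2 (4.65%), beside 16.8%. A trace of signal was thus more frequent among members with siUHRF1 alone than with TSA alone. These arrays chose the members, so the counts describe them and are no test.

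In the fit across all probes (limma, Benjamini-Hochberg adjusted p below 0.05), all 43 members were called higher with siUHRF1 + TSA than with siCONT, beside 15.0% of 23680 probes tested. Against siUHRF1, 42 were called higher, beside 9.91% of all, and against siCONT + TSA, 40 were, beside 2.92%. The rule used these contrasts and every member passed the filter on dim probes through its combination arrays, so nothing is read from the counts. The 3 comparisons share the combination arrays. Over all probes the first comparison called 3542 higher and 1954 lower, and 3129 and 2788 after quantile normalization, and the second called 2346 and 1305, and 2073 and 1960. With normexp background correction the members called higher were 34, 26 and 1, and without the siUHRF1-1 + TSA array 25 of 43 were called against siCONT + TSA.

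The 5-aza-dC array was the readout that the rule did not touch. It read 41 of the 43 members (95.3%) as well above background, beside 15.2% of the 15244 probes that were below background on the same 6 arrays. Among probes above background on both combination arrays but under the minimum, 132 of 185 (71.4%) were detected with 5-aza-dC. Of those above on 1 combination array, 227 of 469 (48.4%) were, and of those on none of the 8 siRNA arrays, 1913 of 14521 (13.2%). All 17 probes that by the same signal rule were on with UHRF1 depletion, with or without TSA, were detected with 5-aza-dC. Of the 5 probes on with TSA, with or without UHRF1 depletion, 2 were. With the weaker flag on the 5-aza-dC array the members were at 97.7% and the 15244 probes at 45.6%. With a single 5-aza-dC array none of these shares carries a test.

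**Figure D2:**
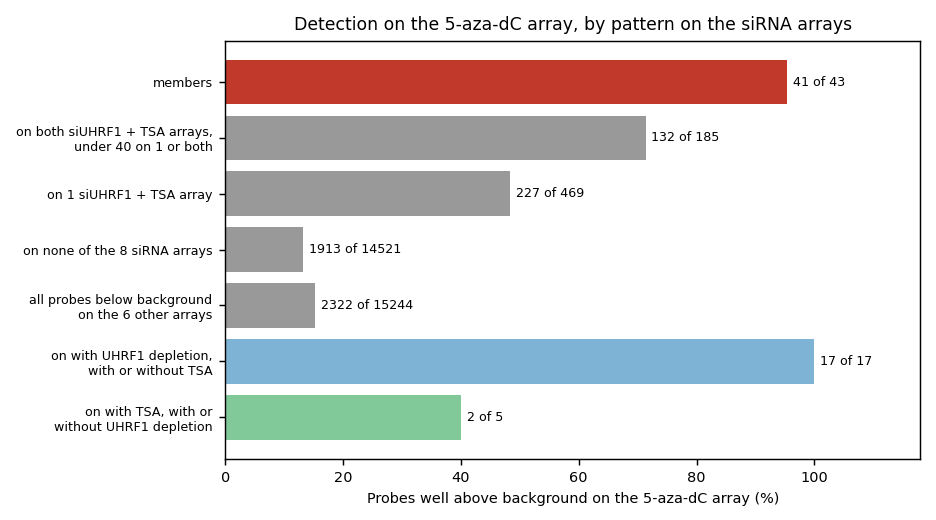
Share of probes well above background on the 5-aza-dC array (%, horizontal axis), by their pattern on the siRNA arrays; the label of each bar gives the count of probes. Members stand at 95.3%, dimmer combination probes at 71.4%, and probes on none of the siRNA arrays at 13.2%.

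The 5-aza-dC array was brighter than the others, with a 75th percentile of 822 against 245 to 338, and slide, scan, siRNA and drug cannot be told apart in this comparison. When a signal of 40 after rescaling to the siRNA arrays was required as well, 32 members (74.4%) remained, beside 5.48% of the below-background probes. Signals over 1000 were seen for 13 of 43 members and for 129 of the 15244 probes (0.846%). The median signal of the members was 445. Relative to each array's 75th percentile, 29 members were brighter with 5-aza-dC than with siUHRF1 + TSA and 14 were dimmer.

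Fitted across all probes, 5-aza-dC against siCONT called 41 of 43 members higher, beside 24.1% of 27122 probes tested and 74.5% of the 3016 below-background probes tested. Such a probe could enter the fit only through a group that was above background, mostly 5-aza-dC itself, and the siCONT arrays are shared with the rule and were chosen as dim. The 5-aza-dC group has no spread of its own, so the counts are given as a description. The 2 members not called were AGT and PSAPL1. The 40 members with a lower limit of their own were at least 1.21-fold to at least 413-fold above siCONT, with a median of 11.9. The fitted median over the 43 was 5.27 on the log2 scale, which leans on the surrogate values of the dim arrays, and 1.53 with normexp correction. That of all probes was 0.01, which became 0.12 with a shift by the median and -0.21 with normexp correction. With normexp correction 27 members were called higher and 2 lower, namely AGT and PSAPL1, and the values of ARHGDIB, C10orf10, TFF3 and WFIKKN2 were also below 0.

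Germline and cancer-testis genes made up 7 of the 13 member probes with a 5-aza-dC signal over 1000. The roles by which the members are ordered from here on were assigned after their values were seen. By symbol patterns written earlier, 6 members (CSAG1, CT45A1, CT45A5, CXorf51A, POTED and STK31) were germline and meiosis genes, of 231 such genes on the array (2.60%), beside 41 of all 27607 genes (0.149%) once the families and lincRNA loci set aside by name were left out. Among genes with every probe below background on the 6 arrays the shares were 3.03% and 0.314%. Of 132 listed germline genes with every probe below background on the 6 arrays, 52 (39.4%) were above it with 5-aza-dC, beside 16.8% of the 10510 such genes overall. DMRTB1, FMR1NB and TCL1A have known germline expression and were added by hand, which makes 9 genes with 10 probes. All 10 probes were above background with 5-aza-dC, with signals from 205 to 16958 and a median of 6421. The 7 probes of the 6 listed genes alone ranged from 235 to 13826 with a median of 2900, and 5 exceeded 1000.

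DMRTB1 encodes a DM-domain transcription factor that governs the passage of male germ cells from mitosis to meiosis. Its signals were 3.02 and 3.24 with siCONT, 5.53 and 11.2 with siUHRF1, 2.92 and 3.28 with siCONT + TSA, 101 and 86.1 with siUHRF1 + TSA, and 16958 with 5-aza-dC. It was the brightest member with 5-aza-dC, at least 413-fold above siCONT.

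CT45A1 and CT45A5 belong to a cluster of near-identical cancer-testis antigen genes on the X chromosome, and their probes may also read other copies. The brighter CT45A1 probe gave 3.09 and 4.20 with siCONT, 3.47 and 7.58 with siUHRF1, 7.60 and 4.33 with siCONT + TSA, 99 and 75.4 with siUHRF1 + TSA, and 13826 with 5-aza-dC. The other CT45A1 probe stayed between 2.83 and 6.31 on the 6 dim arrays and gave 68.5 and 51.6 with both treatments and 12077 with 5-aza-dC. The CT45A5 probe gave 70.4 and 43.6 with both treatments and 9942 with 5-aza-dC. With 5-aza-dC all 3 probes were at least 242-fold to at least 336-fold above siCONT.

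FMR1NB, a cancer-testis antigen gene next to FMR1, had signals of 3.64 and 17.7 with siCONT, 16.1 and 17.8 with siUHRF1, 3.63 and 3.97 with siCONT + TSA, 67.0 and 60.1 with siUHRF1 + TSA, and 12746 with 5-aza-dC. Its siCONT arrays lay apart, and the higher one was level with siUHRF1. STK31 encodes a kinase-like protein of germ cells with a tudor domain. It gave 3.64 and 3.99 with siCONT, 6.82 and 3.50 with siUHRF1, 10.3 and 6.61 with siCONT + TSA, 67.7 and 61.2 with siUHRF1 + TSA, and 2900 with 5-aza-dC. A second STK31 probe was above background with 5-aza-dC (1054) and on 1 siCONT array (88.3), but on neither combination array (16.2 and 11.6).

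The remaining germline members were dimmer with 5-aza-dC. CSAG1, a cancer-testis antigen gene of the X chromosome, gave 58.7 and 65.9 with both treatments and 1047 with 5-aza-dC, from 3.29 to 11.3 on the dim arrays. POTED belongs to a family of primate-specific, closely similar genes active in testis, prostate and ovary, and gave 52.0 and 41.0 with both treatments and 558 with 5-aza-dC. A second POTED probe was above background with siUHRF1 alone as well, at 19.5 and 18.3, beside 40.5 and 33.0 with both treatments. CXorf51A, an uncharacterised testis-expressed gene, had 65.2 and 49.6 with both treatments and 235 with 5-aza-dC. TCL1A, a coactivator of the kinase AKT known from lymphoid tumors and germ cells, had 66.2 and 60.1, and 205 with 5-aza-dC.

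The X chromosome held 9 of the 41 gene names (22.0%), beside 4.26% of the 10510 gene names below background on the 6 arrays. Families with many X-linked genes, such as MAGE, GAGE and SSX, had already been set aside by name. The 9 genes were ASB9, CSAG1, CT45A1, CT45A5, CXorf51A, FMR1NB and 3 loci without a symbol. All 11 of their probes were above background with 5-aza-dC.

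Genes of the extracellular matrix, the cell surface and growth factor binding formed a second set of 7. Of these, FBLN1, COL1A2, COL12A1 and ITGBL1 were on the list of matrix and adhesion genes, which has 314 genes on the array (1.27%, beside 0.149% of all genes). Among genes with every probe below background the shares were 1.10% and 0.314%. TM4SF1, a four-pass membrane protein known from epithelial tumors, was the brightest member of all with both treatments. It gave 3.42 and 3.66 with siCONT, 9.45 and 15.5 with siUHRF1, 8.68 and 3.79 with siCONT + TSA, 187 and 143 with siUHRF1 + TSA, and 1001 with 5-aza-dC. The mean of its combination arrays was at least 10.4-fold above each of the other 3 groups, and a second probe had the same pattern at a lower level (24.3 and 17.0 with both treatments).

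FBLN1 encodes fibulin 1, a glycoprotein of basement membranes and elastic fibers. Its signals were 3.29 and 3.92 with siCONT, 8.43 and 3.08 with siUHRF1, 3.47 and 3.56 with siCONT + TSA, 146 and 108 with siUHRF1 + TSA, and 1152 with 5-aza-dC. Other FBLN1 probes did not share this pattern. One was above background on all 8 siRNA arrays at 25.0 to 36.8, and another on none of them, and both were above it with 5-aza-dC (251 and 42.7).

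THY1, a small glycoprotein anchored at the surface of fibroblasts and neurons, had signals of 4.26 and 4.26 with siCONT, 4.70 and 3.8 with siUHRF1, 3.78 and 4.21 with siCONT + TSA, 84.5 and 89.2 with siUHRF1 + TSA, and 663 with 5-aza-dC. The 6 dim arrays differed little. COL1A2, a chain of collagen I, was the mean of 10 spots and gave 3.33 and 3.79 with siCONT, 4.20 and 3.92 with siUHRF1, 3.25 and 3.63 with siCONT + TSA, 60.9 and 53.2 with siUHRF1 + TSA, and 126 with 5-aza-dC. COL1A1, the partner chain and a fibroblast marker, was above background on all 9 arrays, at 48.8 and 38.5 with siCONT, 57.0 and 97.8 with siUHRF1, 97.2 and 94.5 with siCONT + TSA, 98.7 and 185 with siUHRF1 + TSA, and 315 with 5-aza-dC. Its part in the result was not tested.

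COL12A1, a collagen that sits on collagen I fibrils, had 60.7 and 41.8 with both treatments and 735 with 5-aza-dC, and its second probe was above background with 5-aza-dC alone (33.4). ITGBL1, a secreted protein with integrin-like repeats, had 82.8 and 46.5, and 187 with 5-aza-dC, and its second probe passed on 1 combination array. WFIKKN2, a secreted binder of growth factors of the TGF-beta family, had 50.2 and 45.9, and 49.9 with 5-aza-dC, and its second probe was above background on no array. Relative to the 75th percentile of each array, COL1A2 and WFIKKN2 are therefore the set's 2 members below their combination level with 5-aza-dC.

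TFF3, AGT and PSAPL1, all with secreted or saposin-like products, had 5-aza-dC levels below their combination levels relative to the 75th percentile. TFF3 encodes a trefoil peptide that goblet cells secrete with mucus. It gave 3.31 and 3.56 with siCONT, 3.53 and 3.08 with siUHRF1, 9.01 and 3.56 with siCONT + TSA, 84.5 and 58.0 with siUHRF1 + TSA, and 53.9 with 5-aza-dC. Neither of its other 2 probes was above background on any siRNA array, and 1 of them was with 5-aza-dC (52.1).

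AGT, the precursor of angiotensin, gave 4.12 and 4.69 with siCONT, 9.27 and 7.01 with siUHRF1, 7.5 and 9.87 with siCONT + TSA, 85.4 and 53.7 with siUHRF1 + TSA, and 18.6 with 5-aza-dC (means of 10 spots). PSAPL1, a prosaposin-like gene, gave 2.71 and 2.93 with siCONT, 2.94 and 6.26 with siUHRF1, 11.2 and 8.80 with siCONT + TSA, 73.6 and 48.4 with siUHRF1 + TSA, and 7.97 with 5-aza-dC. These were the 2 members not well above background with 5-aza-dC. A second PSAPL1 probe was above background on no array.

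Among the 6 members in signalling and ion transport, ARHGDIB stood apart. It is known chiefly from blood cells. Its signals were 3.39 and 3.68 with siCONT, 3.85 and 4.22 with siUHRF1, 15.6 and 17.4 with siCONT + TSA, 135 and 116 with siUHRF1 + TSA, and 32.1 with 5-aza-dC. The siCONT + TSA arrays were above both mock groups, and the 5-aza-dC signal, just above the limit of that array, allows no fold over siCONT.

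Of the other 5, PLEKHB1 was, like ARHGDIB, below its combination level with 5-aza-dC relative to the 75th percentile, and 4 were above it. CACNA1A, the pore subunit of P/Q-type calcium channels, gave 52.6 and 50.6 with both treatments and 445 with 5-aza-dC, and CAMK2B, a calcium-dependent protein kinase subunit of neurons, 55.3 and 48.7, and 215. EPHB6, an ephrin receptor without kinase activity, gave 61.5 and 42.8, and 291, with 15.2 and 14.1 under siUHRF1 alone beside 4.08 and 3.64 with siCONT. MRGPRF, an orphan G protein-coupled receptor, gave 62.7 and 41.5, and 261, whereas its second probe was near the limit on every siRNA array (14.0 to 22.5). PLEKHB1, a membrane-bound protein with a pleckstrin homology domain, gave 49.6 and 40.7, and 102.

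All 3 members tied to the cytoskeleton were brighter with 5-aza-dC. CRIP1, a small LIM-domain protein of the intestine, gave 2.89 and 4.32 with siCONT, 12.1 and 6.58 with siUHRF1, 5.62 and 6.30 with siCONT + TSA, 46.0 and 69.2 with siUHRF1 + TSA, and 5975 with 5-aza-dC. A different CRIP1 probe was above background on all 9 arrays, at 97.3 and 95.7 with siCONT, 153 and 171 with siUHRF1, 93.5 and 95.8 with siCONT + TSA, 410 and 493 with siUHRF1 + TSA, and 34120 with 5-aza-dC. By that probe CRIP1 was detected in siCONT cells too, whereas the remaining CRIP1 probe was above background on no array. MYO5C, a class V myosin of exocrine and gut epithelia, had 69.8 and 69.3 with both treatments and 1594 with 5-aza-dC, with 12.2 and 15.0 under siUHRF1 alone. A second MYO5C probe was above background on 1 siCONT array (54.6) and no other, with 3.65 and 3.68 under both treatments. FILIP1, which binds filamin A, had 71.7 and 60.8, and 532, and its second probe shared the pattern (27.3 and 19.0).

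The last 6 with a symbol had mixed functions. CYB5R2, a cytochrome b5 reductase, gave 4.60 and 3.98 with siCONT, 16.7 and 16.8 with siUHRF1, 4.25 and 4.32 with siCONT + TSA, 127 and 76.4 with siUHRF1 + TSA, and 1665 with 5-aza-dC. The siUHRF1 arrays were already above both siCONT groups. A second CYB5R2 probe passed on only 1 combination array, so it did not share the full pattern. It was above background on none of the 6 dim arrays and above it with 5-aza-dC (184). ASB9, a substrate adaptor of an E3 ubiquitin ligase, gave 3.24 and 3.51 with siCONT, 7.30 and 7.12 with siUHRF1, 8.84 and 16.8 with siCONT + TSA, 108 and 112 with siUHRF1 + TSA, and 79.9 with 5-aza-dC.

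CRABP1, a cytosolic retinoic acid binding protein and a marker gene of the CpG island methylator phenotype, was the only member among the 17 genes noted above, which the study followed by assays of single genes or names as such markers. The member probe gave 3.01 and 3.28 with siCONT, 3.33 and 7.05 with siUHRF1, 3 and 3.34 with siCONT + TSA, 50.5 and 45.6 with siUHRF1 + TSA, and 446 with 5-aza-dC. A second CRABP1 probe was above background on 5 of the 6 dim arrays, at 33.9 and 10.9 with siCONT, 45.9 and 36.7 with siUHRF1, 34.2 and 26.2 with siCONT + TSA, and 39.6 and 46.5 with both treatments. The 2 probes thus disagree on whether CRABP1 was detected without both treatments. PRAC, a small nuclear protein gene of prostate and distal colon, gave 45.3 and 73.4, and 715 with 5-aza-dC. CHST8, a sulfotransferase of glycoprotein hormones, gave 60.4 and 55.8, and 263, and C10orf10, a FOXO target induced by fasting and progesterone, 65.0 and 49.2, and 84.9.

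The 7 loci without a symbol (8 probes) were all above background with 5-aza-dC, at 101 to 5833. The highest was the unnamed probe A_33_P3231247 on the X chromosome, with 49.1 and 44.3 with both treatments. LOC338653 was the brightest of them with both treatments (100 and 116). LOC100132163, which RefSeq lists as PHKA2-AS1, an RNA antisense to PHKA2, gave 90.0 and 49.1, and 638 with 5-aza-dC. The others, LOC100506532, LOC100507199, LOC100505500 and ENST00000376617, ranged from 40.4 to 75.1 with both treatments and from 101 to 591 with 5-aza-dC.

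No member was on the lists of zinc finger genes, developmental transcription factors, transporters, cytokines and their receptors, neuronal and synaptic genes, interferon-stimulated genes, lipid and xenobiotic metabolism or immune cell surface genes. The first 2 of these lists had 90 and 156 genes below background on the 6 arrays, of which 44 and 73 were above it with 5-aza-dC. HOX and PCDH genes had been set aside by name. Ion channels, G protein-coupled receptors and developmental ligands and receptors had 1 member each (CACNA1A, MRGPRF and EPHB6), as did muscle and cytoskeleton genes (MYO5C), and 18 member genes were on no list. Long noncoding and uncharacterised loci, with 8550 genes on the array, had 8 members (0.0936%, beside 0.149% of all genes). The 8 include C10orf10, which the symbol pattern placed there though RefSeq lists it as the protein-coding gene DEPP1. With every probe below background, the shares were 0.176% and 0.314%. Members were 0.314% of all genes with every probe below background, so lists with at most 173 such genes would hold under 1 member at that share, and nothing is read from the zeros.

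The combination arrays carried different siRNAs, and the members were higher with siUHRF1-1 + TSA than with siUHRF1-2 + TSA for 36 of 43 probes (83.7%). The median difference was 0.20 on the log2 scale after normalization, with a range of -0.74 to 0.83. Over the 5153 probes above background on both arrays with signals in the members' range, 48.8% were higher with siUHRF1-1 and the median was -0.01. The largest differences in each direction were those of LOC100132163 (0.83) and PRAC (-0.74). The remaining UHRF1 signal was 223 with siUHRF1-1 + TSA and 178 with siUHRF1-2 + TSA, and its part in the result was not tested. KRT20, an epithelial differentiation marker, was above background with siUHRF1-1 + TSA (55.2) but not with siUHRF1-2 + TSA (5.61). Each siRNA had 1 array with TSA, and the difference was not tested. Without the siUHRF1-2 + TSA array the rule would have taken 89 probes, 69.7% of them above background with 5-aza-dC, and without the siUHRF1-1 + TSA array 65, 84.6% of them.

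**Figure D3:**
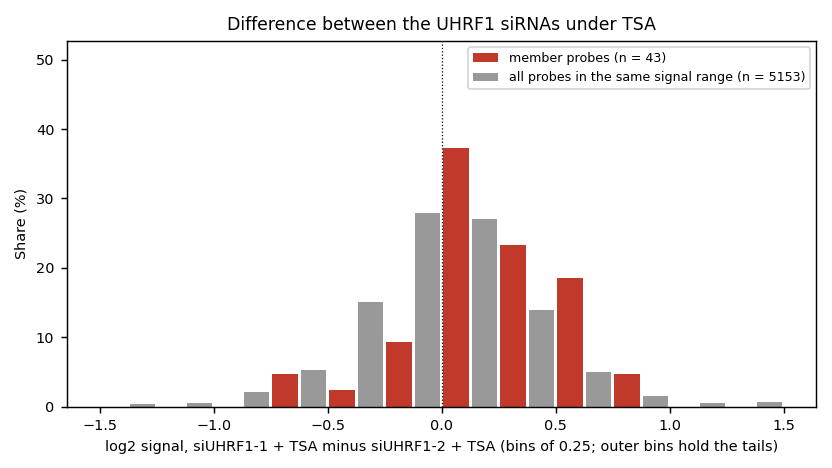
Difference in normalised log2 signal between the siUHRF1-1 + TSA and siUHRF1-2 + TSA arrays (horizontal axis, bins of 0.25) as a share of probes (%, vertical axis), for the 43 members and the 5153 probes in the same signal range. Above 0 lie 83.7% of the members and 48.8% of the other set.

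The CpG content of the members' promoters was nearer to that of other genes below background than to that of all genes. The window was 300 bases, 250 before and 50 after the RefSeq start, and a promoter was counted as CpG-dense with an observed over expected CpG ratio above 0.6 and a GC share above 50%. Of the 41 gene names, 36 were matched by symbol or accession, and the RefSeq promoter set used here covered 29. Of these, 12 (41.4%) were CpG-dense, beside 35.3% of 4745 genes below background on the 6 arrays, 57.4% of the 981 of these above background with 5-aza-dC, 79.9% of 9918 genes above background on all 6, and 63.9% of all 15847. The median CpG ratio was 0.45 in the members, 0.39 in the below-background genes and 0.77 in all. Over the 250 bases before the start alone, the CpG-dense shares were 44.8%, 33.2% and 60.9% in the same order. The median ratios were then 0.48, 0.38 and 0.74. Where a gene had several promoters in the set, as CYB5R2, CHST8, ARHGDIB, PLEKHB1 and WFIKKN2 did, only the first listed was used. Of the 24 members with 1 promoter, 10 (41.7%) were CpG-dense, beside 64.6% of the 11793 such genes on the array.

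The CpG-dense members were POTED, CYB5R2, CHST8, CAMK2B, COL12A1, STK31, MYO5C, CACNA1A, FBLN1, TCL1A, CRABP1 and CRIP1. All 12 were above background with 5-aza-dC, at 205 to 5975 with a median of 646. The 17 with other promoters, among them TM4SF1, ARHGDIB, DMRTB1 and CT45A1 shown above, ranged from 7.97 to 16958 with a median of 235, and 15 were above background. They held all 5 X-linked genes with a promoter in the table, and both AGT and PSAPL1. Over all genes below background on the 6 arrays, 33.6% of 1677 with CpG-dense promoters and 13.6% of 3068 others were above it with 5-aza-dC.

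**Figure D4:**
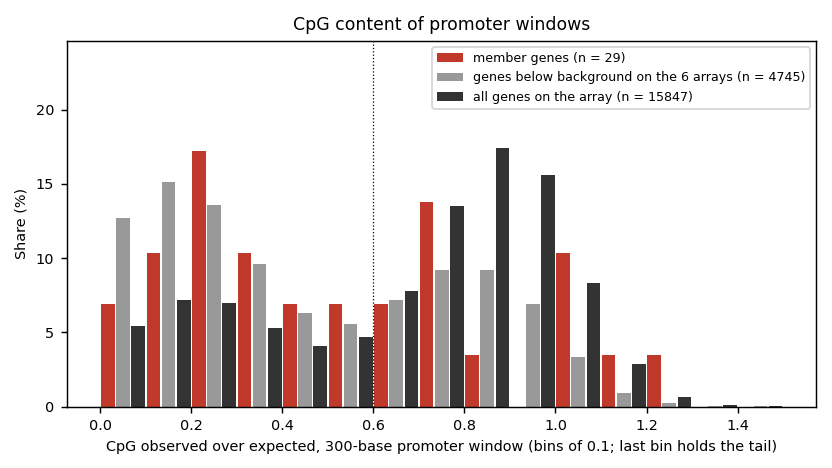
Observed over expected CpG ratio of the 300-base promoter window (horizontal axis, bins of 0.1) as a share of genes (%, vertical axis), for 29 member genes, 4745 genes below background on the 6 arrays and all 15847 genes; the dotted line is at 0.6. The members spread over both sides of the line, with 41.4% counted as CpG-dense against 35.3% and 63.9%.

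Short motifs were counted on both strands of the same windows as plain letter matches. TATAAA was in 6 of 29 member promoters (20.7%), beside 8.97% of all and 15.1% of below-background genes, and the 6 were STK31, TCL1A, AGT, C10orf10, PSAPL1 and CXorf51A. GGGCGG, the letters of a GC box, was in 17 (58.6%), beside 58.9% and 38.4%, and CCAAT was in 10 (34.5%), beside 36.1% and 34.5%. TGANTCA, the letters of an AP-1 site, was in 3 (10.3%), beside 5.97% and 8.35%. CACGTG was in 2 (6.90%), beside 8.82% and 5.94%, and TGACGTCA in 0, beside 2.62% and 1.60%. None of these motifs contains another.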

How the data were processed

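RNA of RKO cells was measured on 9 SurePrint G3 Human GE v2 arrays. The deposited files hold spot intensity values that the authors extracted with Feature Extraction 10.7.3.1, which subtracts background, detrends and gives dim spots a surrogate value, with no normalization between arrays; the deposited value table holds the same intensity values rounded. On the arrays 43.6% to 51.6% of probes passed the flag for well above background, no spot was saturated, and the number of arrays limits the precision. Probe annotation was hg19, and no coordinates of that build are given.

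The members and gene lists were chosen with earlier results of these data known. A probe with several spots was below background when no spot was flagged well above it, and above when all were. After log2, the 75th percentile of an array was subtracted from its values, outlier spots were left out and spots of a probe averaged. limma 3.58.1 in R 4.3.3 was fitted to probes above background on every array of at least 1 group, with the siRNA arrays in 4 groups, or with all 9 arrays in 5 groups for 5-aza-dC; its lone array takes the spread of the siRNA groups. The procedure was tested on simulated data with changes only in probes above background on all 9 arrays. That test does not cover probes as dim as the members. Two-sided p-values were adjusted by Benjamini-Hochberg. Lower limits of fold changes replaced a dim value by the lowest signal that the array flagged well above background, unless the probe itself was brighter. Promoters came from RefSeq (GRCh38.p14).

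Genes were named by a rule: UHRF1, ACTB and GAPDH; the 3 brightest members in each list; the 20 brightest with both treatments; 3 on each side of the signal minimum; the 5 brightest with 5-aza-dC and those not detected there; and members among genes the study followed singly or names as CIMP markers, a list that is not exhaustive. The remaining members were named so that every one is accounted for. Alternatives were other minimums and flags, normexp correction with an offset of 50, quantile and median scaling, no or a stricter filter, outlier spots kept, the deposited table, a replicate block, groups alone, another prior, and each array left out.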

Additional observations from a re-analysis of the deposited data

How the results depend on the processing

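The choice of members depended on the minimum and the flag. The rule took 158 probes with a minimum of 20, 7 with 80 and 228 with none, and 81.0%, 100% and 75.9% of these were above background with 5-aza-dC. The weaker flag on the dim arrays left 1 probe, which was detected with 5-aza-dC (100%), and a rescaled signal at the minimum on the 5-aza-dC array left 74.4%. Leaving out each array gave 43 to 89 probes and shares of 69.7% to 96.8%, with 65 probes without the siUHRF1-1 + TSA array and 89 without the siUHRF1-2 + TSA array.

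With normexp correction the probes called higher fell to 1220 of 3542 against siCONT, 540 of 2346 against siUHRF1, 211 of 692 against siCONT + TSA and 3864 of 6534 for 5-aza-dC against siCONT, and the members to 34, 26, 1 and 27. The cause was not tested. Against siUHRF1, 1314 were called with no filter on dim probes and 490 with the arrays of those groups alone. A filter of at least 4 arrays, which leaves no member in the fit, gave 378 against siCONT + TSA and 4263 for 5-aza-dC. For 5-aza-dC, the log2 differences below 0 with normexp correction were -0.80 for AGT, -0.90 for PSAPL1, -0.41 for ARHGDIB, -0.029 for C10orf10, -0.32 for TFF3 and -0.41 for WFIKKN2. That of PSAPL1, -0.04 in the main setting, was 0.43 after quantile normalization, 0.075 after a shift by the median, and -0.083 to 0.012 without 1 siCONT array. Higher calls for 5-aza-dC were 6534 with 6717 lower, 3864 with 6404 lower with normexp correction, 7521 with 5782 after a shift by the median, and 7194 with 14594 without a filter on dim probes, so which direction had more calls depends on the scaling.

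Leaving out each array gave 1229 to 4743 higher calls against siCONT (40 to 43 members), 1035 to 4381 against siUHRF1 (31 to 41), 368 to 835 against siCONT + TSA (25 to 39) and 4786 to 7333 for 5-aza-dC (39 to 41). The lowest counts were without siCONT replicate 2 in the first 2 comparisons and without siCONT + TSA replicate 2 in the third, and the highest in these 3 without siUHRF1-2. Where a group was left with 1 array, that array takes the spread of the remaining groups. Scaling, outlier spots, the deposited table and the prior moved no other of these counts by over 1.5 times.

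With the replicate number as a block, 3387, 2128 and 640 probes were called higher in the 3 comparisons of siRNA groups, 43, 42 and 39 of them members. Deviations of same-numbered arrays correlated at 0.57 between siUHRF1 and siUHRF1 + TSA, which share an siRNA. Between other groups the correlation was -0.06 to 0.09, so the number was not taken to pair the arrays of every group. The main fit ignored the siRNA shared by arrays of siUHRF1 and siUHRF1 + TSA, and no fit paired those groups alone. No paired analysis was possible for 5-aza-dC, with 1 array. Slide and scan as a block could not be fitted, since they coincide with 5-aza-dC.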
